A study of Mus musculus with 6 samples.

Results

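The cadherins Cdh1 (E-cadherin) and Cdh2 (N-cadherin), the filament gene Vim (vimentin), the transcription factor genes Snai1, Snai2, Zeb1 and Zeb2 of the epithelial-to-mesenchymal transition (EMT), the epithelial splicing regulators Esrp1 and Esrp2 and the epithelial transcription factor Grhl2 were followed by RNA sequencing in 266.6 cells. The 10 genes were chosen by symbol. Of these, 9 had a row in the table of 20764 rows and all 9 passed the filter on low values, among 16169 genes tested. Snai2 had no row and was not analysed here. The 266.6 line is a mouse pancreatic acinar tumour line, established from a tumour of a mouse that carried a viral T antigen under an elastase promoter. It stands for acinar cells as 1 tumour line and not as primary tissue. In the CAF_CM group (3 libraries), 266.6 cells were exposed for up to 40 days to conditioned medium of cancer-associated fibroblasts. The control group (3 libraries) was the same line labelled as control, grown in DMEM with serum as the treated cells were. The control samples carry the same treatment note as the treated ones, so how long the controls were cultured is not given, and the medium cannot be separated from culture time. The series title concerns acinar-to-ductal transdifferentiation, and the comparison asks how the genes of epithelial adhesion and EMT differ between exposed and control acinar tumour cells.

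E-cadherin joins neighbouring epithelial cells through its extracellular repeats and binds catenins inside the cell, and its loss is a hallmark of EMT. SNAI1, SNAI2, ZEB1 and ZEB2 are zinc finger repressors that bind E-boxes with the core CACCTG, including those in the E-cadherin promoter, while GRHL2 activates E-cadherin, and ESRP1 and ESRP2 maintain the epithelial splice forms of many transcripts. In the pancreas, EMT factors have been linked to acinar-to-ductal metaplasia and to the spread of carcinoma.

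Promoter sequences from RefSeq (GRCm38.p6, 250 bases before and 50 after the gene start) matched 3 of the 10 genes, Snai1, Vim and Zeb2. The Snai1 promoter is shown because Snai1 is the EMT factor with the largest change below and because the human SNAI1 protein is known to bind an E-box of its own promoter. The window lies on the plus strand at chr2:167537945-167538244, and the capitals mark its 1 match to the E-box CACCTG (read on either strand, so as CACCTG or CAGGTG), which starts 126 bases before the gene start.
Snai1: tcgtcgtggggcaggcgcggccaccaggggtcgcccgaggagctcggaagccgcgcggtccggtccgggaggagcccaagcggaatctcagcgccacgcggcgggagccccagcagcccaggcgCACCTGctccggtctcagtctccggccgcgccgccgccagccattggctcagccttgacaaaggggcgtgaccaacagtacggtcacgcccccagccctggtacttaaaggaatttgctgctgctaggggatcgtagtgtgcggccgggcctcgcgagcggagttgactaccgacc
Of 32851 promoter windows in the same table, 20.2% held the motif. The Vim window and the 4 windows of Zeb2 held no match to these letters.

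The deposited values are read counts that the authors had scaled by 1 factor per library, called normalized counts here. The reads behind them numbered 18622370 to 21002226 per library, and the biological coefficient of variation between libraries was 8.23% in CAF_CM and 2.20% in control cells. Among 12 pancreatic acinar markers, 11 had a row and Gp2 had none. Their summed level was 34303 to 40756 normalized counts in CAF_CM libraries and 65691 to 68219 in control libraries, most of it Ctrb1 and Cela1, which encode chymotrypsinogen B and an elastase. Rbpjl was also lower, at 2996 normalized counts in CAF_CM and 5316 in control cells (limma adjusted p = 1.63e-06). Cela2a and Cel were called lower as well, from 6 to 30 reads per library. Both passed the filter only through their control libraries, so these calls are given as no result of their own. Not every acinar marker was lower in CAF_CM cells. Prss2 averaged 585 normalized counts in CAF_CM and 466 in control cells, with every treated library above the controls (limma adjusted p = 0.0602), and the mean was 1.11-fold for Cpa1, 1.12-fold for Ptf1a and 1.10-fold for Bhlha15, with overlapping groups. All 6 ductal markers had a row, and their sum was 690.4 to 845 normalized counts in CAF_CM and 555 to 594 in control libraries. Of 12 fibroblast markers 8 had a row, and Col3a1, Lum, Fap and Pdpn did not. Their summed level was 3165 to 3649 normalized counts in CAF_CM and 3515 to 3710 in control libraries, nearly all of it Pdgfrb, and Col1a1 averaged 12.5 normalized counts in CAF_CM and 9.09 in control cells. Immune markers (3 of 8 with a row) summed to 62.7 to 99.7 normalized counts in CAF_CM and 95.4 to 107 in control libraries, and endothelial markers (4 of 6) to 159 to 198 in CAF_CM and 199 to 228 in control libraries. In bulk RNA, fewer cells of a type and less RNA per cell cannot be told apart. Whether the replicates are separate cultures is not stated, and the p-values therefore reflect only how much these libraries varied, possibly for technical reasons.

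In CAF_CM libraries, 4 of the 9 genes were higher and 1 was lower at an adjusted p under 0.05 (limma with Benjamini-Hochberg adjustment over all genes tested), against 18.3% of all tested genes called higher and 16.1% called lower (34.4% in either direction). These shares are 2953 higher and 2602 lower genes, against 2231 higher and 3179 lower with library totals as the scaling, under which the 5 called members kept their calls. Cdh1 fell, whereas the repressor genes Snai1, Zeb1 and Zeb2 rose, and so did the epithelial splicing gene Esrp1. Cdh2, Vim, Esrp2 and Grhl2 did not pass the test. For the 5 called genes the groups did not overlap, a pattern found above control in 24.8% and below control in 22.9% of all tested genes. The median log2 fold change was 0.25 over the 9 genes and 0.00459 over all genes. CAF_CM replicate 2 differs from the other treated libraries in several of the values below. Without that library Esrp2 did not pass the filter. Of the 8 members then tested, 5 were higher and 1 lower, against 19.2% and 17.3% of all genes (36.6% in either direction). Without CAF_CM replicate 1, the lowest treated library for Zeb1 and Zeb2, 4 members were higher and 1 lower. Over all genes that fit called 3497 higher and 2945 lower of 16018 tested.

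**Figure D1:**
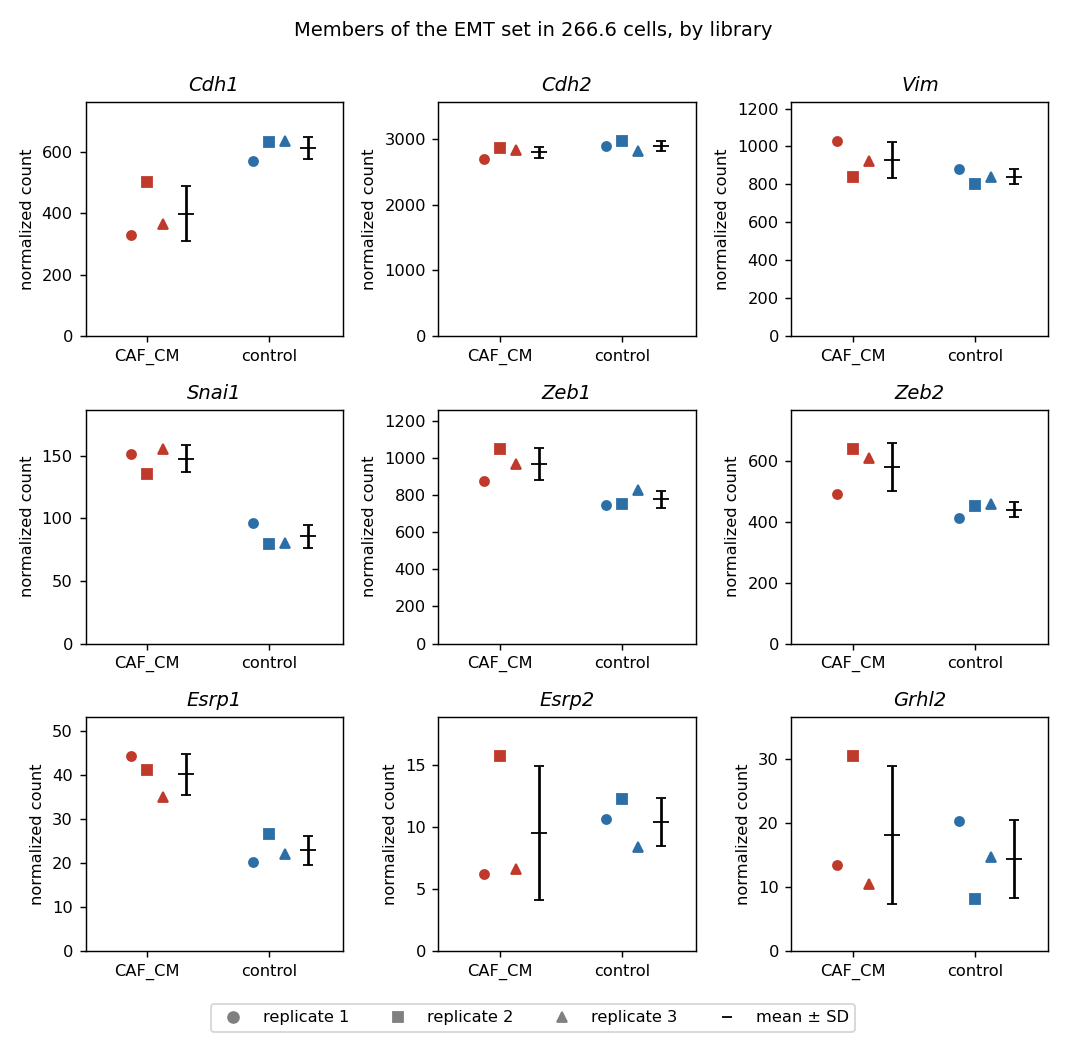
Normalized counts (linear axes from 0) of the 9 genes with a row, one panel each, with the 3 CAF_CM libraries left of the 3 control libraries, symbols for replicate numbers and a bar for mean ± SD. The groups are separate for Cdh1, Snai1, Zeb1, Zeb2 and Esrp1 and overlap for Cdh2, Vim, Esrp2 and Grhl2.

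Cdh1, the gene of the epithelial adhesion receptor E-cadherin, had 331, 501 and 364 normalized counts in CAF_CM replicates 1, 2 and 3, against 571, 632 and 636 in control replicates 1, 2 and 3. Every treated library lay below every control library, and CAF_CM replicate 2 was the nearest to the controls. The means were 399 ± 90.5 normalized counts in CAF_CM and 613 ± 36.3 in control cells (SD, n = 3 each), a log2 fold change of -0.64 on the log2(value + 1) scale (SE 0.13, 95% interval -0.92 to -0.36, limma adjusted p = 0.00277), or 1.56-fold lower. The value was -0.82 without CAF_CM replicate 2. Only 5.23% of all tested genes had a lower log2 fold change than Cdh1.

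Cdh2 encodes N-cadherin, the cadherin that often replaces E-cadherin in EMT. Its libraries held 2695, 2856 and 2835 normalized counts in CAF_CM and 2893, 2969 and 2809 in control cells. The groups overlapped, and the log2 fold change was -0.05 (SE 0.05, 95% interval -0.15 to 0.06, limma adjusted p = 0.471). After a spline correction of the libraries for GC content and transcript length, Cdh2 passed the test as lower (log2 fold change -0.12, limma adjusted p = 0.0375). Within each library, log2(value + 1) of Cdh1 minus that of Cdh2 averaged -2.83 ± 0.28 in CAF_CM and -2.24 ± 0.10 in control cells (SD, n = 3 each). The difference of -0.59 between groups had a two-sided exact permutation p of 0.1, the smallest that 3 libraries against 3 can give, and 0.15 after adjustment over the 3 pairs of genes compared in this way.

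Vim encodes vimentin, the main intermediate filament protein of mesenchymal cells. CAF_CM libraries held 1029.6, 839 and 922 normalized counts and control libraries 880.4, 802 and 842, so that CAF_CM replicates 1 and 3 exceeded every control and replicate 2 did not. The log2 fold change was 0.14 (SE 0.08, 95% interval -0.03 to 0.31, limma adjusted p = 0.176). Without CAF_CM replicate 2 it was 0.21 and past the threshold (limma adjusted p = 0.0273), and without CAF_CM replicate 1 it was 0.07 (adjusted p = 0.441).

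Per kb of the longest transcript, N-cadherin mRNA was 7.46, 5.21 and 7.12 times as abundant as E-cadherin mRNA in CAF_CM replicates 1, 2 and 3, and 4.63, 4.30 and 4.04 times in control replicates 1, 2 and 3. The ratio of Vim to Cdh1, on the same scale, was 4.72, 2.53 and 3.83 in CAF_CM libraries and 2.33, 1.92 and 2.002 in control libraries. In both ratios every treated library exceeded every control library, with CAF_CM replicate 2 the lowest treated one. The Cdh2 to Cdh1 ratio restates the log2 difference tested above, and the Vim to Cdh1 ratio was not tested. With the median transcript length, Vim over Cdh1 was 7.38, 3.97 and 5.99 in CAF_CM libraries and 3.65, 3.01 and 3.13 in control libraries, so that the size of this ratio depends on the length used and the order of the libraries does not.

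**Figure D2:**
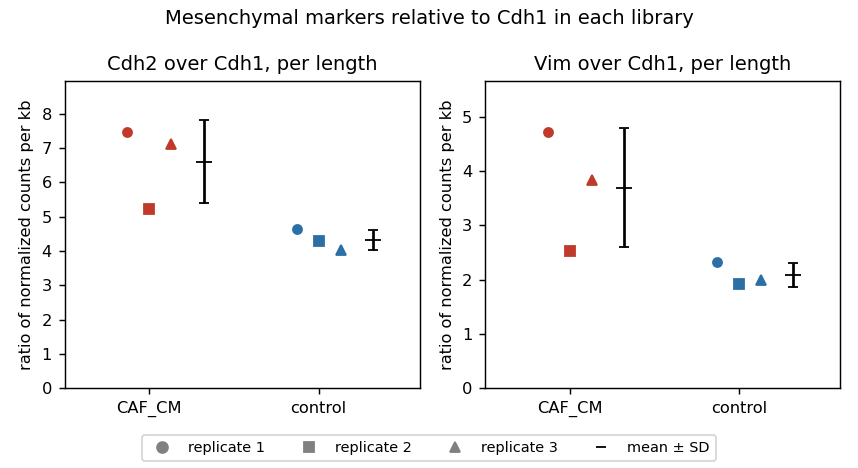
Ratio of Cdh2 to Cdh1 and of Vim to Cdh1 in normalized counts per kb of transcript (linear axes from 0), CAF_CM libraries left of control libraries, with mean ± SD. Cdh2 over Cdh1 averaged 6.59 in CAF_CM and 4.32 in control cells, and Vim over Cdh1 3.69 in CAF_CM and 2.09 in control cells.

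Snai1, whose product SNAIL represses E-cadherin directly and whose promoter is printed above, had 151, 135 and 156 normalized counts in CAF_CM replicates 1, 2 and 3 and 96.3, 79.6 and 80.6 in control replicates 1, 2 and 3. All treated libraries lay above all controls, and CAF_CM replicate 2 was again the lowest treated library. The means were 147 ± 10.8 normalized counts in CAF_CM and 85.5 ± 9.39 in control cells (SD, n = 3 each), a rise of 1.72-fold (log2 fold change 0.78, SE 0.12, 95% interval 0.51 to 1.05, limma adjusted p = 0.000757). The rise rests on 138 to 164 reads per CAF_CM library and 77 to 100 per control library. Among all tested genes, 98.7% had a lower log2 fold change.

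Zeb1, a zinc finger and homeobox repressor of epithelial genes, had 876, 1049.9 and 969 normalized counts in CAF_CM libraries and 747, 754 and 829 in control libraries. Its paralog Zeb2 had 492, 642 and 612 normalized counts in CAF_CM and 412, 453 and 459.5 in control libraries. For both genes the groups were separate, and the highest treated library was CAF_CM replicate 2, where Cdh1 was least reduced. The log2 fold change was 0.31 for Zeb1 (SE 0.07, 95% interval 0.15 to 0.47, limma adjusted p = 0.00794). For Zeb2 it was 0.39 (SE 0.10, 95% interval 0.18 to 0.60, limma adjusted p = 0.00961). The Zeb1 value was 0.18 (limma adjusted p = 0.0325) and the Zeb2 value 0.23 (adjusted p = 0.0167) after the correction for transcript length and GC content, and Zeb2 lost its call without control replicate 1 (0.34, adjusted p = 0.0553). The log2 difference Zeb1 minus Zeb2 averaged 0.73 ± 0.09 in CAF_CM and 0.81 ± 0.07 in control cells (SD, n = 3 each), a change of -0.08 (two-sided exact permutation p = 0.2, adjusted p = 0.2 over 3 pairs), within the spread of the libraries. Zeb2 shares 653 exon bases with Zeb2os on the opposite strand, a gene at 1.03 to 4.90 normalized counts per library.

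Esrp1 encodes the main epithelial splicing regulator of the pair, an RNA-binding protein that is usually lost in EMT. It had 44.3, 41.1 and 35.1 normalized counts in CAF_CM replicates 1, 2 and 3, against 20.2, 26.5 and 21.98 in control replicates 1, 2 and 3. Every treated library was above every control library, so this epithelial gene rose in the libraries in which Cdh1 fell. The log2 fold change was 0.79 (SE 0.20, 95% interval 0.35 to 1.23, limma adjusted p = 0.0110), or 1.72-fold, from 37 to 43 reads per CAF_CM library and 21 to 26 per control library. In DESeq2 the call was lost (log2 fold change 0.80, adjusted p = 0.0514).

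Its paralog Esrp2 was close to the limit of the filter on low values, at 6.18, 15.7 and 6.64 normalized counts in CAF_CM and 10.6, 12.2 and 8.37 in control libraries. The groups overlapped, with CAF_CM replicate 2 above and the other treated libraries below all controls. The interval of its log2 fold change ran from -1.05 to 0.61 (estimate -0.22, limma adjusted p = 0.696), so that at 6 to 16 reads per library a rise of the size seen for Esrp1 lay outside this interval and a fall of that size lay within it. Esrp2 also shares 219 exon bases with Nfatc3 on the opposite strand in GENCODE M21, and no source used here gives the strand setting of the counting. If strand was ignored, reads of the shared bases cannot be assigned to 1 of the 2 genes. The log2 difference Esrp1 minus Esrp2 averaged 2.08 ± 0.67 in CAF_CM and 1.07 ± 0.21 in control cells (SD, n = 3 each), a change of 1.004 with a two-sided exact permutation p of 0.1 (adjusted p = 0.15 over 3 pairs). Grhl2, a grainyhead factor that activates Cdh1, had 13.4, 30.4 and 10.4 normalized counts in CAF_CM and 20.2, 8.16 and 14.7 in control libraries. No order of the groups was visible, and its log2 fold change was 0.25 (95% interval -0.65 to 1.16, limma adjusted p = 0.674) but -0.18 without CAF_CM replicate 2 and -0.08 without control replicate 2.

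**Figure D3:**
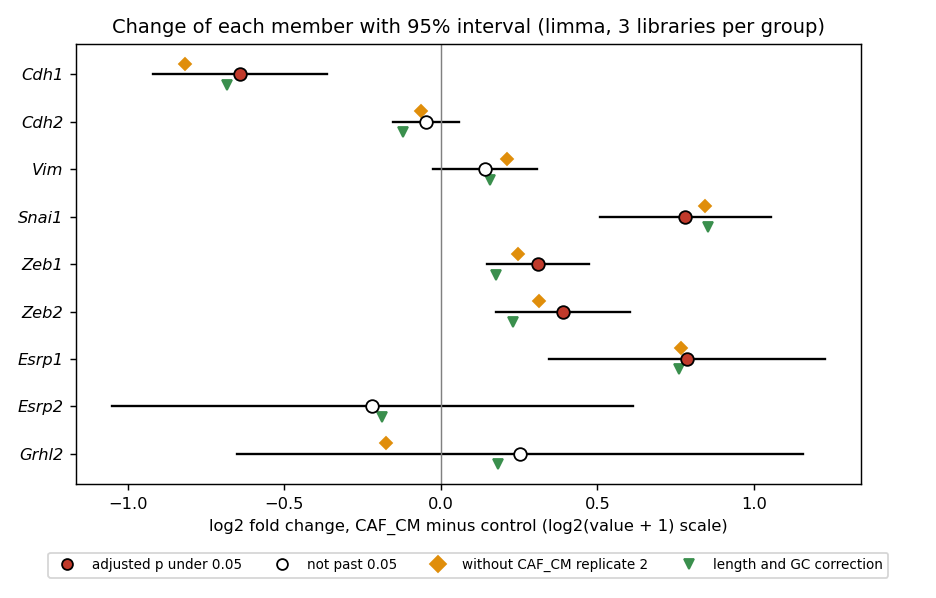
Log2 fold change (CAF_CM minus control, log2(value + 1) scale) of the 9 genes from limma, with 95% intervals as lines, filled circles for adjusted p under 0.05, and the values without CAF_CM replicate 2 (diamonds) and after correction for length and GC content (triangles). Cdh1 lies at -0.64, Snai1 at 0.78 and Esrp1 at 0.79, the intervals of Esrp2 and Grhl2 cross 0 widely, and Esrp2 has no diamond because it did not pass the filter without that library.

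Levels per kb of the longest transcript place the set in order. In CAF_CM cells, Cdh2 came first with 577 ± 18.1 normalized counts per kb, followed by Vim with 318 ± 32.6, Zeb1 with 166 ± 15.0, Snai1 with 90.9 ± 6.67, Cdh1 with 90.0 ± 20.4 and Zeb2 with 63.8 ± 8.71. In control cells the order was Cdh2 with 597 ± 16.5 normalized counts per kb, Vim with 288 ± 13.4, Cdh1 with 138 ± 8.2, Zeb1 with 134 ± 7.81, Snai1 with 52.7 ± 5.79 and Zeb2 with 48.4 ± 2.81 (SD, n = 3 per group). The levels of Cdh1 and Snai1 overlapped in CAF_CM libraries, while in control libraries Cdh1 overlapped with Zeb1 and Snai1 with Zeb2. Esrp1 was far lower, at 10.4 ± 1.204 per kb in CAF_CM and 5.93 ± 0.84 in control cells. Esrp2 (2.69 ± 1.51 per kb in CAF_CM, 2.94 ± 0.55 in control) and Grhl2 (3.65 ± 2.17 in CAF_CM, 2.90 ± 1.22 in control) were the lowest and overlapped. With the median transcript length in place of the longest, Vim (688 per kb in CAF_CM, 622 in control) came close to Cdh2 (738 in CAF_CM, 764 in control), and Zeb1 and Zeb2, which have many short annotated transcripts, stood above Cdh1 in both groups. The mean of Zeb1 (715 per kb) then also exceeded that of Vim in CAF_CM cells. In CAF_CM replicate 1, however, Vim (762 per kb) exceeded both Zeb1 (649) and Cdh2 (712). The mean of Esrp2 (15.1 per kb in CAF_CM, 16.5 in control) then lay above that of Esrp1 (11.3 in CAF_CM, 6.43 in control). In CAF_CM replicates 1, 2 and 3 the 2 genes overlapped, with Esrp2 at 9.79, 24.8 and 10.5 and Esrp1 at 12.4, 11.5 and 9.86. The order of the ESRP means thus depends on the length used.

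**Figure D4:**
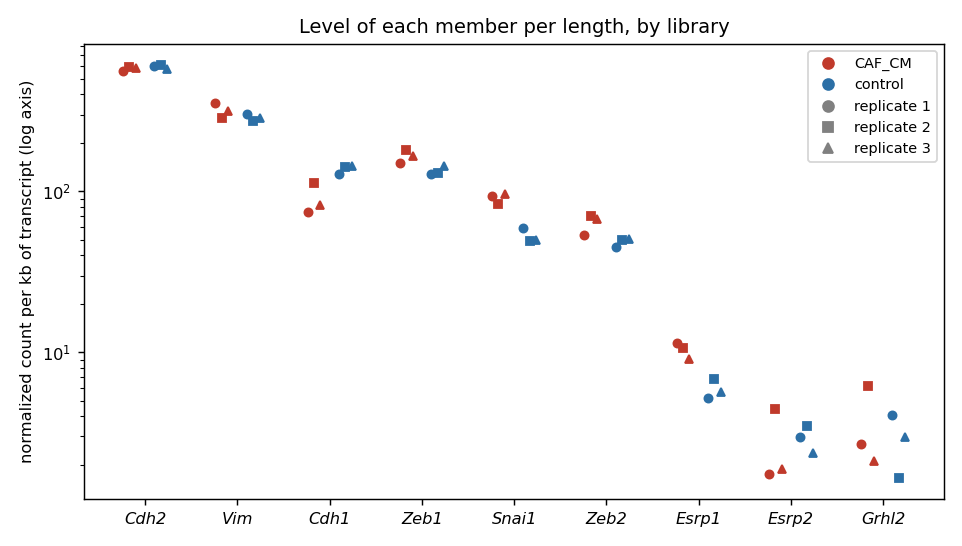
Normalized counts per kb of the longest GENCODE M21 transcript (log axis) for the 9 genes in each library, CAF_CM points left of control points, ordered by the control mean. Cdh2 and Vim lie highest and Esrp1, Esrp2 and Grhl2 lie at 11.5 per kb or less in every library.

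The genes whose library pattern was most like that of Cdh1, among 10370 with a mean of at least 100 normalized counts, were Fbln2, a matrix fibulin gene, Vegfa, the vascular growth factor gene, Matn2, a matrilin gene, Ak4, a mitochondrial adenylate kinase gene, and P4ha2, a collagen prolyl hydroxylase gene. Their root mean square distances from Cdh1 over the 6 libraries, in log2 units from each gene's control mean, were 0.0372, 0.0543, 0.0690, 0.0706 and 0.0758. Fbln2, the closest, had 657, 1019.5 and 705 normalized counts in CAF_CM and 1189.5, 1264 and 1240.3 in control libraries. That CAF_CM replicate 2 was its least reduced library follows from the choice of genes by distance from Cdh1. For Snai1 the 5 nearest genes were Sntb1, a syntrophin gene, Zfp365, Mex3c, D16Ertd472e and Samd5, at distances of 0.0634, 0.0681, 0.0769, 0.0869 and 0.0918. Sntb1 had 496, 457 and 523 normalized counts in CAF_CM and 295, 282 and 273 in control libraries. CAF_CM replicate 2 was its lowest treated library, which likewise follows from the choice by distance.

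Proteins that work with cadherins were examined next. Of 20 genes of catenins and the adherens junction, 7 rose (35%, against 18.3% of all tested genes) and 1 fell (5%, against 16.1%). Ctnnd2, the gene of delta-catenin, an armadillo protein typical of neurons, rose to 4517 ± 148 normalized counts in CAF_CM, against 3387 ± 153 in control cells (log2 fold change 0.42, limma adjusted p = 0.000166), and the alpha-catenin gene Ctnna2, also known from neurons, by 0.52 log2 units (adjusted p = 0.000543). The small GTPase gene Rac1 rose by 0.32 (adjusted p = 0.000759). Vcl, the vinculin gene, rose by 0.33 (adjusted p = 0.0265), with overlapping groups and a call lost with library totals and without CAF_CM replicate 2 or 3 or control replicate 1 or 2 (adjusted p 0.0517 to 0.122), and Afdn, the afadin gene, did not pass the test (0.23, adjusted p = 0.0515). Ctnnb1, the beta-catenin gene, rose by 0.17 (adjusted p = 0.0128, and 0.0580 to 0.0712 without any one control replicate), while Ctnna1 (0.11, adjusted p = 0.0650), Ctnnd1 (0.07, adjusted p = 0.675) and Jup (-0.08, adjusted p = 0.287) did not pass the test. These members of the list were named after their values were seen. The rises numbered 4, 3 and 4 without control replicate 1, 2 and 3. The falls numbered 4 without CAF_CM replicate 2 or with the length and GC correction, 2 with library totals or separate group weights, and 0 in DESeq2 and without CAF_CM replicate 3 or any one control replicate. Among the other classical and desmosomal cadherins, 11 of 25 had a row and 9 were tested. Of these, 1 fell (11.1%, against 16.1% of all tested genes). Cdh24 fell, with 439.9 ± 24.6 normalized counts in CAF_CM and 520.2 ± 36.8 in control cells (log2 fold change -0.24, limma adjusted p = 0.0301), a call lost without control replicate 1 or 2 (adjusted p = 0.0778 and 0.151), where the list had 0 falls. With the length and GC correction 3 fell, and without CAF_CM replicate 1 there were 2 rises.

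Among factors with related roles, called rises outnumbered called falls. Of 14 other EMT transcription factors tested, 7 rose (50%, against 18.3% of all tested genes) and 1 fell (7.14%, against 16.1%). Their median log2 fold change was 0.32. Scrt1, a neural zinc finger gene of the Snail superfamily, rose to 743 ± 27.3 normalized counts in CAF_CM, against 504 ± 25.4 in control cells (log2 fold change 0.56, limma adjusted p = 0.000134). The E-protein genes Tcf4 (0.34, adjusted p = 0.000677) and Tcf12 (0.36, adjusted p = 0.00134) rose as well, and Id2, an inhibitor of E-proteins, fell by 0.23 on the log2 scale (adjusted p = 0.00348). Twist1 averaged 69.1 normalized counts in CAF_CM and 55.8 in control cells (adjusted p = 0.132). Without CAF_CM replicate 1 the falls numbered 3, where 2945 of 16018 tested genes fell. Of 18 corepressor genes used by SNAIL and ZEB proteins 8 rose (44.4%, against 18.3% of all tested genes). First were Rcor1 (0.36, limma adjusted p = 0.000515), Kdm1a, the LSD1 demethylase gene (0.25, adjusted p = 0.00192), and the deacetylase gene Hdac1 (0.20, adjusted p = 0.00493). Without control replicate 1, 4 of the 18 rose, where 1865 of 15942 tested genes rose. There was 1 fall in this list without CAF_CM replicate 1.

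Genes that control turnover of the SNAI1 protein were higher in 9 of 18 cases (50%, against 18.3% of all tested genes). The list mixes genes that favour degradation of SNAI1 with genes that stabilize it, so this count has no direction for the protein. The genes named next are those with its lowest adjusted p. Fbxl14, a ubiquitin ligase gene of SNAI1, rose to 919.6 ± 41.6 normalized counts in CAF_CM, against 677 ± 7.58 in control cells (log2 fold change 0.44, limma adjusted p = 0.000268). The kinase genes Gsk3b, which marks SNAI1 for degradation (0.33, adjusted p = 0.000541), and Csnk1e (0.29, adjusted p = 0.00133) rose too. Without CAF_CM replicate 2, or with the length and GC correction, 1 gene of this list fell. Of 18 TGF-beta receptor, ligand and SMAD pathway genes, 8 rose (44.4%, against 18.3% of all tested genes) and 2 fell (11.1%, against 16.1%). Tgif1, a SMAD corepressor gene, was at 30.2 ± 0.74 normalized counts in CAF_CM and 7.10 ± 1.298 in control cells, from 30 to 31 and 6 to 8 reads per library. It passed the filter through its CAF_CM libraries alone, so its call among the 8 rises is given as no result of its own. The ubiquitin ligase gene Smurf2 (0.47, limma adjusted p = 0.000193) and Smad5, of the BMP branch (0.35, adjusted p = 0.000368), rose. Genes of the TGF-beta branch differed in direction. Smad2 (0.30, adjusted p = 0.00185) and the receptor gene Tgfbr1 (0.17, adjusted p = 0.0157) rose, as did Smad4, shared by both branches (0.26, adjusted p = 0.00239), and Smad1, of the BMP branch, did not pass the test (0.14, adjusted p = 0.0684). With the length and GC correction Smad2 (0.11, adjusted p = 0.136) and Tgfbr1 (0.06, adjusted p = 0.311) lost their calls, and Tgfbr1 also with library totals and without control replicate 1 or 2 (adjusted p 0.0532 to 0.0904). Smad3, of the TGF-beta branch like Smad2, was at 587 ± 83.1 normalized counts in CAF_CM and 786 ± 25.4 in control cells and fell by 0.43 (adjusted p = 0.00356), and the receptor gene Tgfbr2 fell by 0.39 (adjusted p = 0.0410). The Tgfbr2 call was lost in DESeq2 (adjusted p = 0.0870), with the replicate number as a block (0.0511), and without CAF_CM replicate 2 (0.0855) or 3 (0.111) or control replicate 2 (0.1298) or 3 (0.149). The falls in the list numbered 1 in DESeq2, with the block, and without CAF_CM replicate 2 or 3, control replicate 2 or control replicate 3.

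Among epithelial regulators besides the members, 17 transcription factor genes were tested. Of these, 4 rose (23.5%, against 18.3% of all tested genes) and 1 fell (5.88%, against 16.1%). Foxa1, a pioneer factor gene of endoderm, had 123 ± 13.0 normalized counts in CAF_CM and 67.2 ± 15.3 in control cells (log2 fold change 0.87, limma adjusted p = 0.00209). Foxa2 fell by 0.20 (adjusted p = 0.0157), a call lost without CAF_CM replicate 3, without any one control replicate and with the length and GC correction (adjusted p 0.0513 to 0.0795). Without control replicate 1 or 2, or with library totals, the rises numbered 2. The falls numbered 3 without CAF_CM replicate 1, 2 with library totals or the replicate block, and 0 without any one control replicate or with the length and GC correction. The other grainyhead genes did not pass the test, with Grhl1 at 62.2 normalized counts in CAF_CM and 82.6 in control cells (adjusted p = 0.0649) and Grhl3 at 577 in CAF_CM and 546 in control cells (adjusted p = 0.622). Of 18 splicing regulators besides the ESRP genes, 9 rose (50%, against 18.3% of all tested genes). They were led by Celf1 (0.42, limma adjusted p = 0.000136), Qk (0.37, adjusted p = 0.000166) and the neuronal splicing gene Rbfox3. Rbfox3 was at 125 ± 8.09 normalized counts in CAF_CM and 55.5 ± 0.89 in control cells (log2 fold change 1.16, limma adjusted p = 8.59e-05). Rbfox2, a splicing factor of mesenchymal isoforms (0.27, adjusted p = 0.00252), and Rbm47, of epithelial ones (0.33, adjusted p = 0.000717), both rose. Of 15 genes with exons known to be regulated by ESRP proteins, 2 rose, Enah (0.41, adjusted p = 0.000107) and Map3k7 (0.31, adjusted p = 0.000757), and 2 fell, among them Cd44 (-0.52, adjusted p = 0.000547). Each of these counts was 13.3% of the list, against 18.3% of all tested genes called higher and 16.1% called lower. Gene levels do not show which exon was used. In the list of ESRP exons the rises numbered 6 without CAF_CM replicate 1, and the falls 4 with the length and GC correction and 1 without control replicate 2 or 3.

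Markers that EMT usually lowers or raises were counted next. Of 35 epithelial genes listed, 31 had a row and 24 were tested. Of the 24 tested, 3 fell (12.5%, against 16.1% of all tested genes) and 2 rose (8.33%, against 18.3%). Their median log2 fold change was -0.078, and 0.00459 over all genes. F11r, a junctional adhesion molecule gene, had 3738 ± 55.2 normalized counts in CAF_CM and 5044 ± 171 in control cells (log2 fold change -0.43, limma adjusted p = 8.34e-05), Tjp3 fell by 0.65 (adjusted p = 0.00438) and the protease inhibitor gene Spint2 by 0.30 (adjusted p = 0.00897). Ocln, the occludin gene, rose by 0.75 (adjusted p = 0.0228), a call lost in DESeq2 and without CAF_CM replicate 2 or 3 or control replicate 1 or 3 (adjusted p 0.0560 to 0.0971). Epcam, the gene of an epithelial adhesion molecule, averaged 110.5 normalized counts in CAF_CM and 118 in control cells (adjusted p = 0.610). Without CAF_CM replicate 2, 8 epithelial genes fell and 0 rose, where 17.3% of all tested genes fell and 19.2% rose. Without CAF_CM replicate 1 the rises numbered 4. They numbered 0 in DESeq2 and without CAF_CM replicate 3, control replicate 1 or control replicate 3, and 1 without control replicate 2 and with TMM, library totals, limma-voom or the length and GC correction, which gave 5 falls. Spint2 lost its call without control replicate 1 (adjusted p = 0.0501).

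Of 34 mesenchymal genes listed, which EMT usually raises, 25 had a row and 21 were tested. Among those without a row were Fn1, S100a4, Col3a1 and Mmp2. Of the 21 tested, 2 rose (9.52%, against 18.3% of all tested genes) and 6 fell (28.6%, against 16.1%). Their median log2 fold change was 0.045, and 0.00459 over all genes. The integrin gene Itga5 fell to 264 ± 51.3 normalized counts in CAF_CM, against 371 ± 25.8 in control cells (log2 fold change -0.50, limma adjusted p = 0.00915), and Myl9, a myosin light chain gene, by 0.40 (adjusted p = 0.00938). The hyaluronan receptor gene Cd44 also fell. The genes that rose were Cald1 (0.34, adjusted p = 0.0136, and 0.0563 and 0.0519 without control replicates 1 and 2) and Col1a2 (0.48, adjusted p = 0.0299). Col1a2 lost its call in DESeq2 and without any one library except CAF_CM replicate 3 (adjusted p 0.0514 to 0.0908). Tgfbi, a known target of TGF-beta, fell by 0.71 (adjusted p = 0.0144), a call lost without control replicate 2 (adjusted p = 0.0635). The rises numbered 0, 0 and 1 without control replicates 1, 2 and 3, 1 without CAF_CM replicate 1 or 2, 1 in DESeq2, 4 without CAF_CM replicate 3, and 5 with the length and GC correction. The falls numbered 4 without control replicate 2 or 3 and 6 or 7 without a CAF_CM replicate. Itga5 lost its call without control replicate 1 (adjusted p = 0.0527). Among 15 intermediate filament genes besides Vim, 9 rose (60%, against 18.3% of all tested genes), and those with the lowest adjusted p encode neurofilament proteins. Nefm was at 1096 ± 27.2 normalized counts in CAF_CM and 567 ± 21.9 in control cells (log2 fold change 0.95, limma adjusted p = 2.98e-06), Ina rose by 0.57 (adjusted p = 3.92e-05) and Nefl by 0.84 (adjusted p = 0.000107). The epithelial keratin gene Krt18 averaged 34.5 normalized counts in CAF_CM and 30.4 in control cells (adjusted p = 0.557), and Krt8 did not pass the filter.

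In limma, no gene fell in the lists of corepressors, SNAI1 turnover, splicing regulators and intermediate filaments, and none rose in that of other cadherins. For these 5 counts of 0, the count at an unadjusted p under 0.05 in limma was 0, and so were the counts by edgeR and DESeq2 at an adjusted p under 0.05. With the length and GC correction, and without CAF_CM replicate 2, 1 intermediate filament gene fell. That correction made the log2 fold changes of Tcf4 (0.18), Tcf12 (0.21), Gsk3b (0.14), Smad5 (0.19), Celf1 (0.24), Qk (0.21), Rbfox2 (0.15), Enah (0.20) and Map3k7 (0.17) more than 1.5 times smaller, each still past the threshold. Shares called higher in a list are to be read against 18.3% of all genes, and shares called lower against 16.1%. List counts from an alternative fit are to be read against the calls over all genes in that fit. Without control replicate 1, for example, these numbered 1865 higher and 1612 lower of 15942 genes tested.

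**Figure D5:**
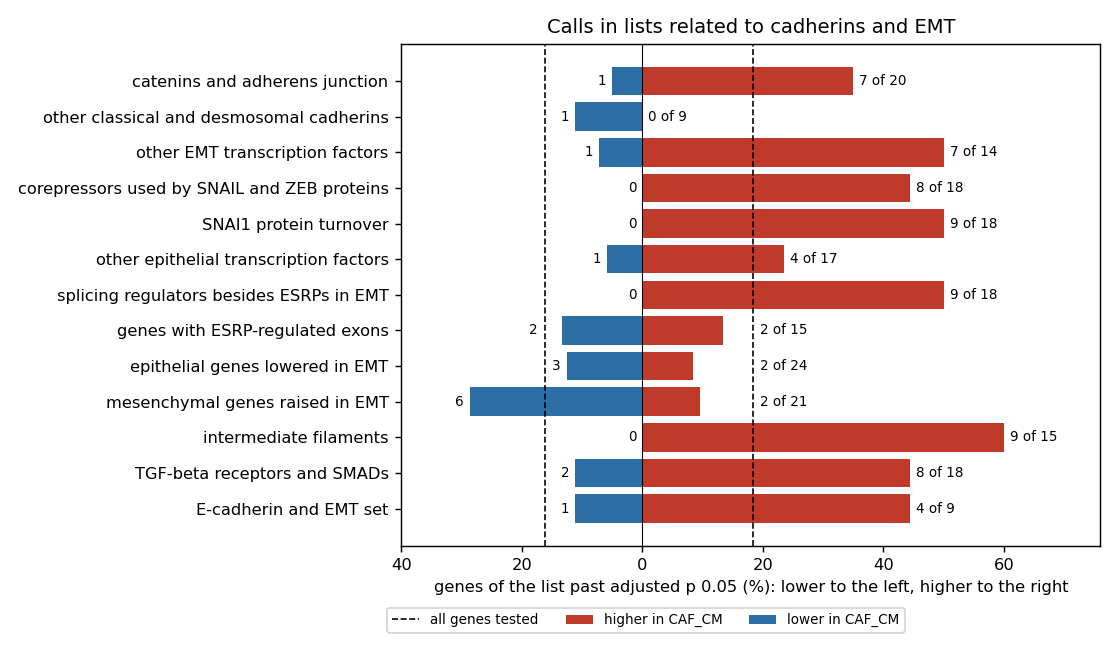
Percentage of the tested genes of each related list, and of the 9 genes of the set, called higher (right, with the count and the number tested) or lower (left, with the count) in CAF_CM by limma at an adjusted p under 0.05. Dashed lines mark the shares of all tested genes, 18.3% higher and 16.1% lower, and the list of mesenchymal genes has 6 falls and 2 rises of 21.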

How the data were processed

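Total RNA of 6 libraries (Illumina TruSeq kit, per the labels' protocols) was measured, 3 per group. FastQC, DESeq2 and the human build hg19 are named in the submitters' processing notes, though the symbols are mouse ones, and the aligner, counting program, strand setting and mouse build are not given in the sources used here. The deposited values are a signal that the authors made by dividing read counts by 1 factor per library. In every library 100% of values were whole multiples, within 0.001 of a read, of 1 step, and whole reads were recovered by division. The lowest row total was 10 reads. Of 20764 rows, 168 carried no symbol (0.153% to 0.261% of reads) and were left out, and in symbols a full stop replaces a hyphen.

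The test was limma-trend (limma 3.58.1 under R 4.3.3) on log2(value + 1). Genes entered it when 3 or more libraries held a value of 10 or more, with Benjamini-Hochberg adjustment over 16169 genes and a threshold of 0.05. This scale understates changes of low genes. The test was checked on simulated data. Levels per kb used GENCODE M21 transcripts. The members, the 12 related lists and the tests were chosen with earlier results of these data known. Genes named were the members, up to 3 called genes per list by adjusted p, and the 5 nearest patterns of Cdh1 and Snai1. Further list genes, among them Ctnnb1, Ctnna1, Ctnnd1, Jup, Id2, Twist1, Vcl, Afdn, Smad1, Smad2, Smad3, Smad4, Tgfbr1, Tgfbr2, Grhl1, Grhl3, Rbfox2, Rbm47, Ocln, Epcam, Cald1, Col1a2, Tgfbi and Krt18, were chosen after their values were seen. A few genes that the naming rule picks are not reported here. Alternatives were pseudocounts of 0.5 and 5, no filter, a filter on counts per sequenced depth, TMM, library totals, edgeR 4.0.16, DESeq2 1.42.0, limma-voom, separate group weights, a spline correction for length and GC content, a replicate block, and each library left out. Promoter sequences came from RefSeq.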

Additional observations from a re-analysis of the deposited data

How the results depend on the processing

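Under 19 alternatives, Cdh1, Snai1 and Zeb1 kept their direction and their call. The Cdh1 value ranged from -0.82 to -0.52 (adjusted p up to 0.0182), that of Snai1 from 0.73 to 0.87 (up to 0.00643) and that of Zeb1 from 0.18 to 0.38 (up to 0.0467). Zeb2 and Esrp1 each lost the call under 1 alternative, and Cdh2 and Vim each gained it under 1, as given with their values. With the length and GC correction 2 members were lower, Cdh2 being added to Cdh1. That fit called 3117 genes higher and 2710 lower of 15371 tested. Leaving out 1 library at a time, 3 to 5 members were called higher and Cdh1 alone lower, and DESeq2 called 3 higher. Over all genes these fits called 1865 to 3497 genes higher and 1612 to 2945 lower, against 2953 and 2602 in all libraries. The highest counts came without CAF_CM replicate 1 and the lowest without control replicate 1. The counts were 1963 and 1667 without control replicate 2, and 2084 and 1678 without control replicate 3. The cause of these differences was not tested. With library totals the split was 2231 higher and 3179 lower. Of 456 counts recomputed for the 12 related lists, 392 were within 1.5 times of the reported count. Same-numbered libraries of the groups deviated together only weakly (correlations 0.0703, 0.0291 and 0.0305 for numbers 1, 2 and 3), so the numbers were not taken to pair the samples, although each library correlated best with its own number. With the replicate number as a block, 3166 genes were higher and 2755 lower, and the members' calls stayed at 4 and 1. Depth limits Esrp2 and Grhl2, at 6 to 31 reads per library, and Esrp2 was not tested under 4 of the alternatives.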
